A study of Homo sapiens with 18 samples.

Results

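The genes described here are 41 enzymes, carriers and regulators of the tricarboxylic acid (TCA) cycle, of pyruvate use and of 2-oxoglutarate metabolism, chosen by symbol because they surround the reaction of the gene OGDHL. All 41 were found, with 1 row each, among 26863 gene symbols of a bulk RNA sequencing table, and 37 were tested, among 16067 genes that reached a level of 1 TPM in at least 3 libraries. The cells were of an established prostate cancer line, 16D CRPC, where CRPC stands for castration-resistant prostate cancer. They carried Cas9 from a lentivirus with either the control guide (sgAAVS) or 1 of 2 guides to OGDHL (sgOGDHL_1, here guide 1, and sgOGDHL_2, here guide 2). Each was kept for 6 weeks in DMSO, the vehicle, or in 10 µM enzalutamide (Enza), an antiandrogen drug, which gave 6 groups of 3 libraries. All groups, the controls included, carried Cas9 and a guide, and whether the edited cells were pools or clones is not given in the sources used here. No label says that the 3 libraries of a group came from separate cultures, so the p-values measure the spread between these libraries, which may be technical.

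Pyruvate enters mitochondria through a carrier made of MPC1 and MPC2, and the pyruvate dehydrogenase complex turns it into acetyl-CoA, under the control of its own kinases and phosphatases. Citrate synthase starts the TCA cycle from acetyl-CoA, isocitrate dehydrogenases make 2-oxoglutarate, and the 2-oxoglutarate dehydrogenase complex, in which OGDHL is an alternative form of the first subunit, turns that into succinyl-CoA. Transaminases and glutamate dehydrogenase exchange 2-oxoglutarate with glutamate, and prostate epithelium is known for its unusual handling of citrate.

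Levels are given as TPM, a transcript's share of a library per transcript length, after the rows of the mitochondrial genome (MT- rows) were dropped and each library was rescaled to a sum of 1000000. A change is a difference between group means of log2(TPM + 1), which understates the change of low genes. It was called where limma's test gave a Benjamini-Hochberg adjusted p under 0.05 over all genes tested. TPM keeps no sequencing depth, so the depth of each library is unknown.

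The MT- rows took 50.1% to 62.3% of the deposited TPM in 16 libraries, and 73.8% and 69.9% in replicates 1 and 2 of guide 1 in vehicle (57.2% in replicate 3). Those labelled guide 2 in vehicle were unlike the rest: across genes, their correlation with libraries of other groups ran from 0.887 to 0.920, against 0.950 to 0.996 among all others. They listed 1407 to 1630 rows at 0, against 3042 to 4498. The 6 luminal prostate markers used were present in every group, with group means from 9.96 TPM for TMPRSS2 to 2030 TPM for KLK3. KRT5 and TP63 (basal), CHGA and SCGN (neuroendocrine), COL1A2 and DCN (fibroblast), PTPRC and CD3E (leukocyte) and PECAM1 (endothelial) had group means of at most 0.170 TPM. Of the other markers of those lists, SYP had group means of 1.29 to 1.75 TPM, KRT14 of 0.0880 to 0.654 TPM and VWF of 0.0982 to 0.479 TPM. LUM, a fibroblast proteoglycan, moved with the drug: its mean was 0.976 TPM in control enzalutamide, 2.49 TPM in guide 1 enzalutamide and 0.417 TPM in guide 2 enzalutamide, it reached at most 0.0224 TPM in vehicle, and its part in the results was not tested. CD68 reached a mean of 23.6 TPM in the libraries labelled guide 2 in vehicle, against 1.26 TPM in control vehicle.

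OGDHL itself read 4.68, 4.86 and 4.62 TPM in control vehicle and 1.93, 2.29 and 3.16 TPM in guide 1 vehicle. The libraries labelled guide 2 in vehicle held 6.17, 7.31 and 6.54 TPM, above every control vehicle library. Their label names a guide to OGDHL, and why the transcript was not lower was not tested. The log2 change was 0.42 ± 0.094 (SE, adjusted p = 8.8e-04 in limma's test), and 0.12, not called, with median-of-ratios scaling. In enzalutamide the control guide gave 7.63, 7.85 and 7.43 TPM, guide 1 gave 2.56, 2.62 and 2.30 TPM, and guide 2 gave 4.14, 4.33 and 4.35 TPM. OGDHL was thus lower under guide 1 in vehicle (log2 change -0.74), and under guide 1 (-1.31) and guide 2 (-0.71) in enzalutamide. A transcript level does not show whether the protein was lost.

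4 promoters are shown for members whose levels the results below turn on: AADAT, MPC2 and ME1, which were lower in enzalutamide under the control guide and higher under guide 1 than under the control guide in the drug, and GOT2, which was lower in enzalutamide under every guide. Each runs 250 bases up to the gene's RefSeq start (GRCh38.p14, all on the minus strand): AADAT at chr4:170090241-170090490, MPC2 at chr1:167935997-167936246, ME1 at chr6:83431052-83431301 and GOT2 at chr16:58734317-58734566. Of the GENCODE transcripts, 3 of 8 for AADAT, 1 of 3 for MPC2, 1 of 1 for ME1 and 6 of 7 for GOT2 began within 100 bases of that start. In GENCODE release 29 (GRCh38) the genes span 170060222 to 170091699 (AADAT), 167916729 to 167937040 (MPC2), 83210389 to 83431071 (ME1) and 58707131 to 58734357 (GOT2) on those chromosomes. The AADAT and MPC2 windows thus lie inside their genes, downstream of other annotated starts.
AADAT: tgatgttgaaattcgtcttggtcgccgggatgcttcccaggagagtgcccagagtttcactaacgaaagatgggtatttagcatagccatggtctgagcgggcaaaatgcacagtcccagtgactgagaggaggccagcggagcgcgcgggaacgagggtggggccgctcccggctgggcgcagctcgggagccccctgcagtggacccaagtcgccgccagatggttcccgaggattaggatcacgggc
MPC2: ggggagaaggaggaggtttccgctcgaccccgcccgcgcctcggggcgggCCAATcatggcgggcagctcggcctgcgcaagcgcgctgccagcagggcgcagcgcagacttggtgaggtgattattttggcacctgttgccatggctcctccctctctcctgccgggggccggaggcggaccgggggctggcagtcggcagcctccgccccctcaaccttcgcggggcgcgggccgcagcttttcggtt
ME1: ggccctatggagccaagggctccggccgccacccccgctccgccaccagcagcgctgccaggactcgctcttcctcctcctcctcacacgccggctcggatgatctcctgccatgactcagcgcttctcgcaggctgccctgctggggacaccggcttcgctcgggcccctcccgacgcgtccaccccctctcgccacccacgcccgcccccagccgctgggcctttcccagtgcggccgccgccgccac
GOT2: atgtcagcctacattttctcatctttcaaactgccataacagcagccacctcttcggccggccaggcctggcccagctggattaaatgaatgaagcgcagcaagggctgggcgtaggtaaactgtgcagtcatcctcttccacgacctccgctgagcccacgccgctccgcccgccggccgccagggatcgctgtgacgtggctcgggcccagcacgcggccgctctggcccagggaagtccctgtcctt
The capitals mark a CCAAT box in the MPC2 promoter, 200 bases before the start. Both strands were searched for CCAAT and for the E-box CACGTG, and these 4 windows held no other match. Over 38 members with a RefSeq promoter, 21 held CCAAT (33.0% of 27305 promoters did) and 3 held CACGTG (6.49%). A match of letters is a description and does not show that a factor binds.

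Among the 37 tested members, the ratio of the highest to the lowest group mean ran from 1.22 (PDHB, a pyruvate dehydrogenase subunit) to 11.2 (AADAT). It was 2 or more for 10 of them, and the share of all genes at that ratio was not counted. Of the 10, the libraries labelled guide 2 in vehicle were the highest or lowest group for PDK1, GOT2, PDPR, D2HGDH, PDK3, BCKDHA and DLAT. They were neither for AADAT, ME1 and MPC2. The lowest single value was 0.994 TPM, for SUCLA2, and the highest was 241 TPM, for GOT2. The heat map shows that AADAT under guide 1 in enzalutamide was the farthest value above control vehicle, and that the libraries labelled guide 2 in vehicle differed from control vehicle over most of the list.

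**Figure D1:**
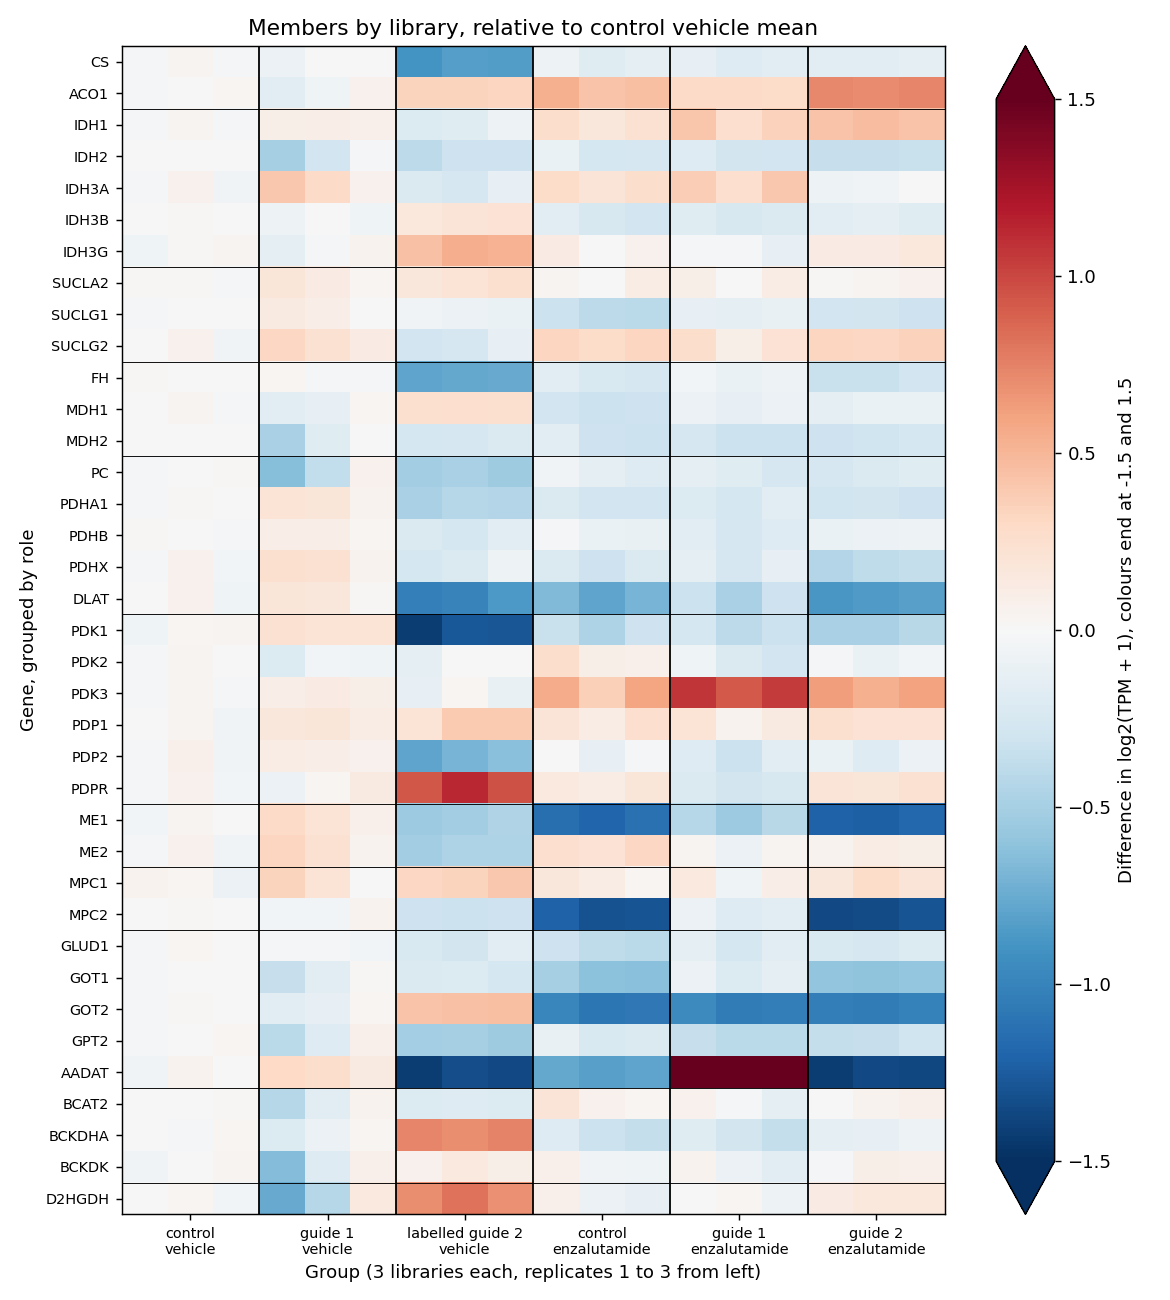
Each row is a tested member, grouped by role, and each column is a library, with 3 libraries a group. Colour gives the difference in log2(TPM + 1) from the control vehicle mean, with colours ending at -1.5 and 1.5. MPC2, ME1 and GOT2 are blue in control enzalutamide. In guide 1 enzalutamide MPC2 is pale and AADAT is at the red end.

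Enzalutamide in control-guide cells asks what the drug alone did to these genes. In bulk RNA, fewer cells that express a gene and less RNA per cell cannot be told apart. MPC2, a subunit of the mitochondrial pyruvate carrier, fell from 106, 107 and 106 TPM in vehicle to 45.2, 42.4 and 42.7 TPM in the drug, a log2 change of -1.27 ± 0.037 (SE, adjusted p = 7.9e-13). The groups lay far apart, with no library between them. Its partner MPC1 was not called (8.89, 8.72 and 7.99 TPM against 9.68, 9.26 and 8.70 TPM, which overlapped). ME1, the cytosolic malic enzyme that makes pyruvate and NADPH from malate, fell from 4.0, 4.29 and 4.17 TPM to 1.35, 1.26 and 1.38 TPM (-1.15 ± 0.053). All drug libraries were below all vehicle libraries. The mitochondrial form ME2 was higher, at 6.37 ± 0.24 TPM (SD, n = 3) against 5.16 ± 0.27 TPM (log2 change 0.26).

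Of the 4 transaminases outside the branched-chain pathway, which pass amino groups to and from 2-oxoglutarate, 3 fell in the drug and GPT2, the mitochondrial alanine transaminase, was not called (-0.18, adjusted p = 0.076). GOT2, the mitochondrial aspartate transaminase of the malate-aspartate shuttle, went from 174, 177 and 174 TPM to 88.1, 82.2 and 82.6 TPM (-1.05 ± 0.047, adjusted p = 1.1e-10). Its cytosolic partner GOT1 went from 28.7, 29.4 and 29.4 TPM to 20.4, 18.6 and 18.6 TPM (-0.58 ± 0.069). Both drug groups lay wholly below vehicle. AADAT, the 2-aminoadipate and kynurenine transaminase, went from 13.5, 14.5 and 14.0 TPM to 7.81, 7.55 and 7.70 TPM (-0.79 ± 0.047, adjusted p = 3.4e-09). GLUD1, glutamate dehydrogenase, fell by 0.37 on the log2 scale.

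In the pyruvate dehydrogenase complex, DLAT, the acetyl-transferring core, fell from 42.9, 44.8 and 41.1 TPM to 26.7, 24.3 and 26.1 TPM (log2 change -0.72 ± 0.062). PDHA1 (-0.27) and PDHX (-0.25) fell by less, while PDHB (-0.07) and pyruvate carboxylase, PC (-0.13), were not called. Of the kinases that switch the complex off, PDK3 rose from 6.57, 6.88 and 6.51 TPM to 10.3, 8.84 and 10.5 TPM (0.50 ± 0.060) and PDK1 fell by 0.37, while PDK2 was not called (0.15). Of the phosphatases that switch it on, PDP1 rose (0.18), and PDP2 (-0.04) and their regulator PDPR (0.15) were not called.

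Among the TCA cycle enzymes, their cytosolic forms, the branched-chain enzymes and D2HGDH, no called change exceeded 0.47 in size. SUCLG1, the shared subunit of succinyl-CoA synthetase, fell by 0.37, malate dehydrogenases MDH1 and MDH2 by 0.31 and 0.27, IDH3B by 0.23, fumarase FH by 0.22 and citrate synthase CS by 0.13 on the log2 scale. ACO1, the cytosolic aconitase that also binds iron-responsive RNA elements, rose from 6.26, 6.43 and 6.58 TPM to 9.71, 9.02 and 9.17 TPM (0.47 ± 0.047). SUCLG2 (0.31), IDH3A (0.24) and IDH1 (0.22) rose. BCKDHA, of the branched-chain keto acid dehydrogenase, fell by 0.29. IDH2 (-0.21), IDH3G (0.07), SUCLA2 (0.05), BCAT2 (0.10), BCKDK (-0.01) and D2HGDH (-0.04) were not called.

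In all, 17 of the 37 members were called lower in the drug (45.9%, against 24.8% of all genes tested) and 7 higher (18.9%, against 23.1%). The median change of the members was -0.13, against -0.0090 over all genes. With MT- rows kept, 8 were called lower and 1 higher, beside 1551 and 1245 of all genes (20.8% called). The summed TPM of the 6 luminal markers was also lower in the drug, at 1191 to 1299 against 1945 to 2003 in vehicle. Most of that fall was in KLK3, with a mean of 132 TPM against 833 TPM, and 5 of the 6 genes had a lower mean, while HOXB13 had a higher one (779 TPM against 594 TPM). The part of these markers in the changes of the members was not tested.

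Guide 1 against the control guide in enzalutamide asks how cells targeted at OGDHL differed once both were in the drug. AADAT read 53.8, 50.4 and 54.7 TPM under guide 1 against 7.81, 7.55 and 7.70 TPM under the control guide, a mean ratio of 6.90 and a log2 change of 2.64 ± 0.047 (SE, adjusted p = 1.7e-14). Every guide 1 library was also above every library of the other 5 groups. MPC2 read 99.9, 92.6 and 94.9 TPM against 45.2, 42.4 and 42.7 TPM (1.12 ± 0.037, adjusted p = 2.1e-11). The guide 1 drug values lay just below the vehicle values of 103, 104 and 110 TPM under the same guide. ME1 read 2.81, 2.52 and 2.84 TPM against 1.35, 1.26 and 1.38 TPM (0.68 ± 0.053), above the drug controls and below the 4.42 to 5.31 TPM of guide 1 in vehicle.

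GOT1 read 27.3, 25.2 and 26.6 TPM under guide 1 in the drug against 20.4, 18.6 and 18.6 TPM (0.44 ± 0.069), and GOT2 read 89.8, 84.0 and 84.6 TPM against 88.1, 82.2 and 82.6 TPM (0.03, adjusted p = 0.68). The aspartate transaminases thus split, with GOT1 apart from its control and GOT2 overlapping it. PDK3 read 15, 13.5 and 14.9 TPM (0.51 ± 0.060) and DLAT 34.1, 30.2 and 34.3 TPM (0.34 ± 0.062), both above all 3 drug controls. SUCLG1 (0.25), MDH1 (0.21), GLUD1 (0.18) and FH (0.14) were also called higher. PDPR (-0.39), PDK2 (-0.34), ME2 (-0.26), ACO1 (-0.19), PDP2 (-0.18) and PDHB (-0.13) were called lower.

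Counted together, 10 members were higher (27.0%, against 16.3% of all genes) and 6 lower (16.2%, against 14.3%, near the background). The median change was 0.018, against 0.00068 over all genes. With MT- rows kept 3 members were called, all higher: AADAT (2.38), MPC2 (1.00) and ME1 (0.42). That setting called 7.07% of all genes, 289 higher and 659 lower. The luminal marker list moved in the same comparison, with a summed level of 3105 to 3394 TPM under guide 1 against 1191 to 1299 TPM. 4 of its 6 genes had a higher group mean, KLK3 the most, at 2030 TPM against 132 TPM, and KRT8 and HOXB13 had a lower one. The part of these markers in the change of AADAT, MPC2 and ME1 was not tested.

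**Figure D2:**
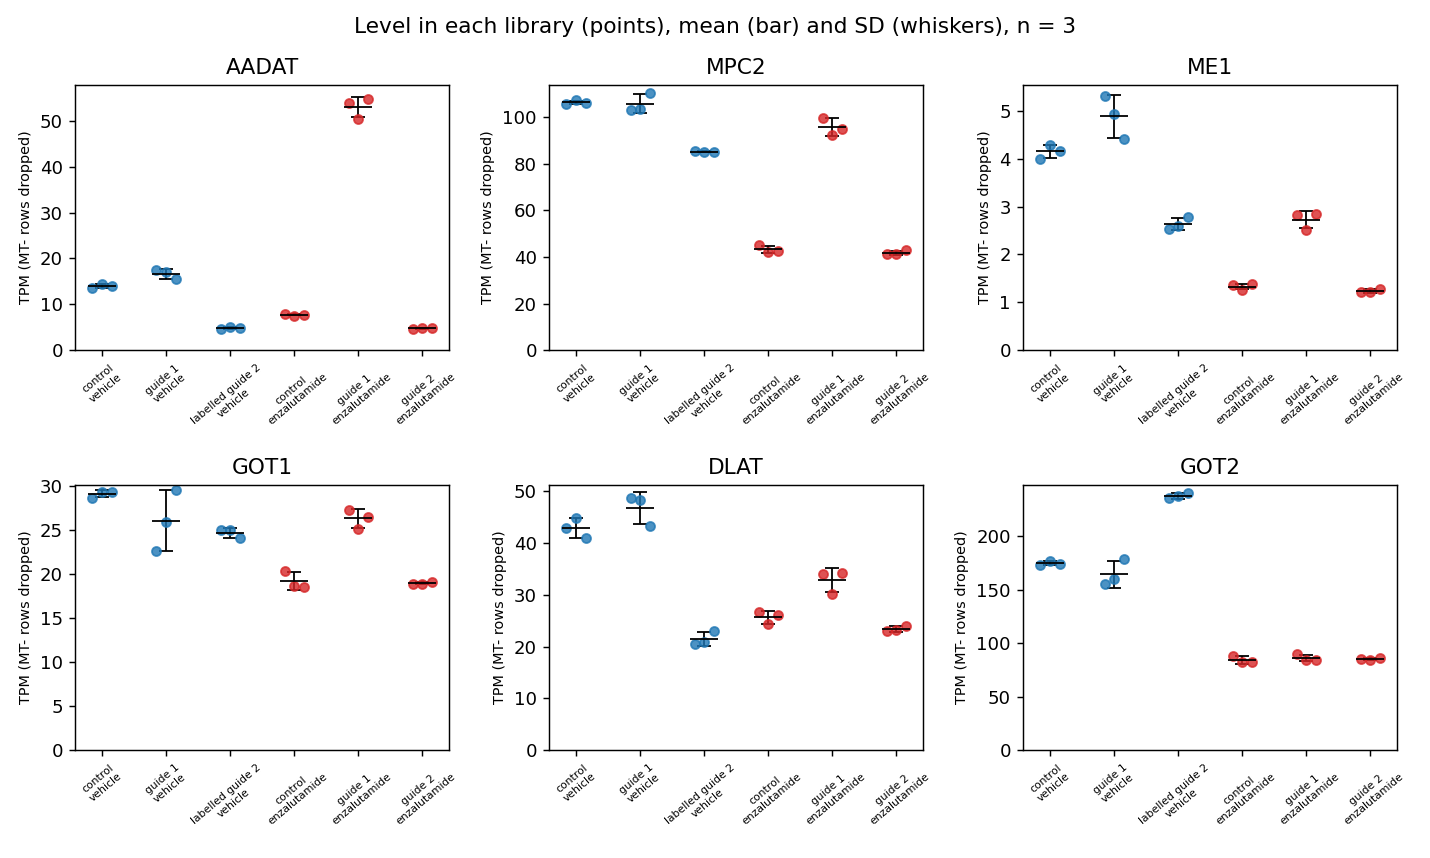
Points are TPM in each library after MT- rows were dropped, for 6 members in the 6 groups, with vehicle in blue and enzalutamide in red. Bars are means and whiskers SD (n = 3). AADAT lies between 50.4 and 54.7 TPM in guide 1 enzalutamide and under 18 TPM elsewhere, while GOT2 lies under 90 TPM in all 3 drug groups.

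The test of whether the drug change itself differed between guide 1 and the control guide (the interaction) called 9 members higher (24.3%, against 11.6% of all genes) and 5 lower (13.5%, against 15.2%). AADAT led, with a drug change of -0.79 under the control guide and 1.62 under guide 1, a difference of 2.41 ± 0.067 (SE, adjusted p = 6.8e-12). MPC2 followed, with -1.27 against -0.14 (difference 1.13 ± 0.053, adjusted p = 2.5e-09), although its small fall under guide 1 turned to 0.20, not called, with MT- rows kept. GOT1 changed by -0.58 and 0.02 (difference 0.60, adjusted p = 4.7e-04), ME1 by -1.15 and -0.66 (0.49) and PDK3 by 0.50 and 0.91 (0.41). MDH1 (0.29), GLUD1 (0.20), SUCLG1 (0.17) and FH (0.15) differed in the same direction. ME2 (-0.46), PDPR (-0.41), SUCLG2 (-0.34), PDP2 (-0.27) and PDHB (-0.21) differed in the other, the last 2 with their signs turned when MT- rows were kept (0.10 and 0.18, not called). The median over members was 0.052, against -0.015 over all genes. In guide 1 vehicle GOT1 read 22.7, 26.0 and 29.6 TPM in replicates 1, 2 and 3, against 28.7 to 29.4 TPM in control vehicle. MDH1 read 58.8, 60.6 and 67.2 TPM there, against 64.6 to 67.6 TPM. Both were highest in replicate 3, where the share of MT- rows was lowest (73.8%, 69.9% and 57.2%). The part of that share in their differences was not tested. Without replicate 3 of guide 1 in vehicle 24 members were called in place of 14, beside 47.3% of all genes. With MT- rows kept 5 were (AADAT, MPC2, GOT1, PDK3 and ME1, all higher), beside 6.95% of all genes.

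Within guide 1, drug against vehicle, 17 members were called lower (45.9%, against 23.3% of all genes) and 4 higher (10.8%, against 19.5%), with a median of -0.084 against -0.0044 over all genes. GOT2 went from 155, 160 and 179 TPM to 89.8, 84.0 and 84.6 TPM (-0.92 ± 0.047, adjusted p = 9.4e-10). ME1 fell by 0.66, PDK1 by 0.54 and DLAT by 0.50. In the rest of the pyruvate dehydrogenase group PDHA1 (-0.35), PDHX (-0.35), PDP2 (-0.32), PDHB (-0.28) and PDPR (-0.26) were called lower. GPT2 (-0.21), ME2 (-0.20), SUCLG1 (-0.20), BCKDHA (-0.18), IDH3B (-0.17), GLUD1 (-0.16), MPC2 (-0.14) and CS (-0.13) made up the other called falls. AADAT rose from 17.4, 17.0 and 15.4 TPM to 53.8, 50.4 and 54.7 TPM (1.62 ± 0.047), PDK3 rose by 0.91, and ACO1 (0.33) and IDH1 (0.25) rose. With MT- rows kept, when the median over all genes moved from -0.0044 to 0.23, 5 members were called higher and 2 lower, and 11 of the 17 called falls turned positive, none of them called (PDP2, PDHB, PDPR and all of the last 8 named). Of all genes, 3532 were called higher and 475 lower in that setting. 12 members were called when only these 6 libraries entered the fit, beside 21% of all genes.

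**Figure D3:**
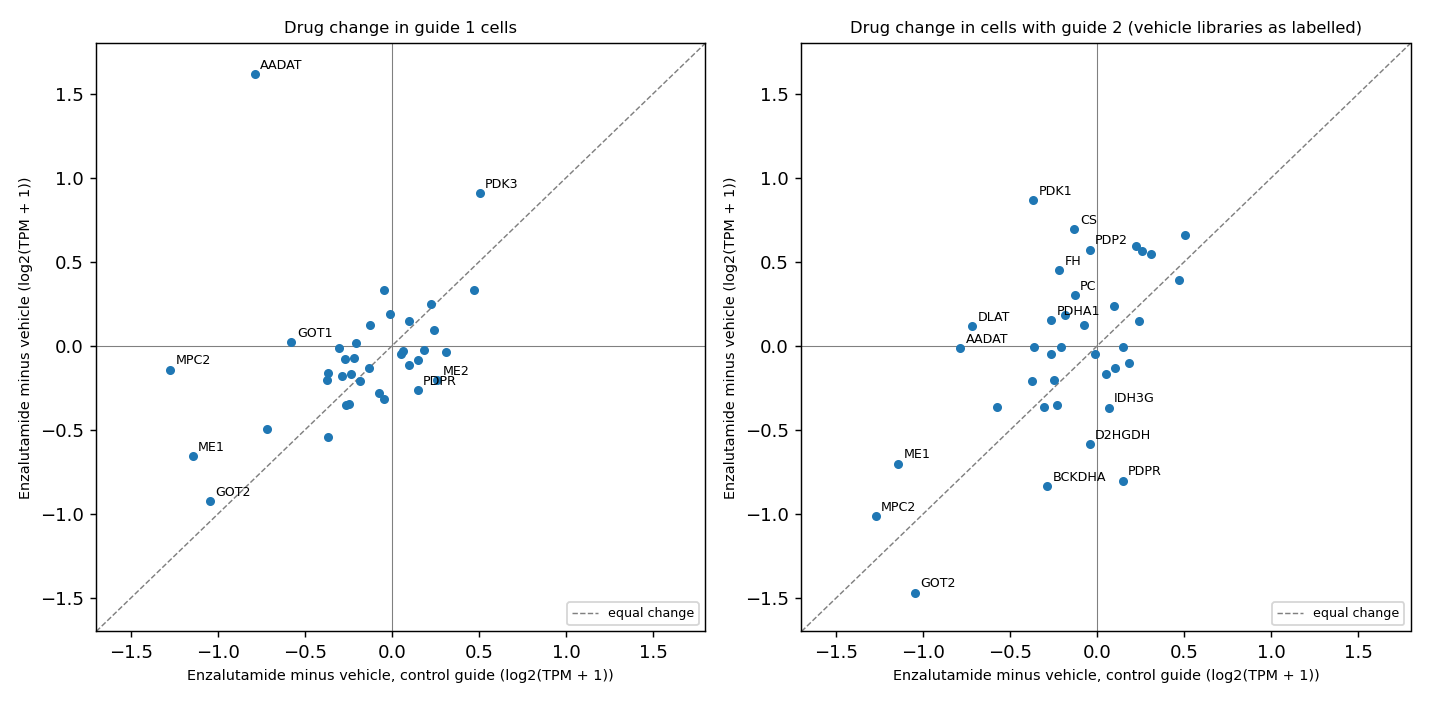
Each point is a tested member; both axes are enzalutamide minus vehicle in log2(TPM + 1), with the control guide on the horizontal axis and guide 1 (left) or guide 2 (right) on the vertical axis. The dashed line marks equal change. AADAT lies at -0.79 and 1.62 on the left, far above the line, and GOT2 lies near the line at -1.05 and -0.92; the vertical values on the right rest on the libraries labelled guide 2 in vehicle.

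Guide 2 against the control guide in enzalutamide, which shares the drug controls with the guide 1 comparison, gave fewer calls. 4 members were higher (10.8%, against 8.97% of all genes) and 3 lower (8.11%, against 5.02%), both near the background, with a median of -0.016 against 0.018. AADAT was lower, at 4.58, 4.85 and 4.82 TPM against 7.81, 7.55 and 7.70 TPM (log2 change -0.60 ± 0.047, adjusted p = 1.1e-06), and all 3 libraries lay below all controls. MPC2 read 41.2, 41.3 and 42.8 TPM (-0.05, adjusted p = 0.42) and ME1 1.22, 1.21 and 1.28 TPM (-0.06, adjusted p = 0.56), and both overlapped their controls. ACO1 (0.25), IDH1 (0.22), MDH1 (0.19) and GLUD1 (0.14) were called higher, and IDH3A (-0.29) and FH (-0.10) lower. Median-of-ratios scaling called 3 higher and 5 lower, beside 1459 and 1269 of all genes. With MT- rows kept AADAT alone was called, beside 1.25% of all genes. The count fell from 7 to 4 without replicate 3 of the drug controls or without replicate 1 or 2 of guide 2. In that order, 9.38%, 9.09% and 8.38% of all genes were called. The call of GLUD1 was lost without replicate 2 or 3 of the controls (adjusted p = 0.11 and 0.15) or without replicate 1, 2 or 3 of guide 2 (0.10, 0.073 and 0.13). That of IDH3A was lost without replicate 1 or 3 of the controls (0.053 and 0.055) or 1 or 2 of guide 2 (0.059 and 0.052), and that of FH without any library of either group (0.053 to 0.16).

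Setting guide 2 directly against guide 1 in the drug leaves the vehicle groups out of the difference. The spread behind its SE and p-values was still fitted over all 18 libraries. AADAT was lower by 3.23 on the log2 scale under guide 2 (a change of -3.23 ± 0.047, adjusted p = 2.3e-15), MPC2 differed by -1.18, ME1 by -0.74, DLAT by -0.47, GOT1 by -0.45 and PDK3 by -0.43. IDH3A (-0.39), FH (-0.24), PDHX (-0.21) and SUCLG1 (-0.17) were also called lower. PDPR (0.45), ACO1 (0.44), IDH3G (0.20), BCKDHA (0.16) and PDHB (0.12) were higher under guide 2. That made 10 members lower (27.0%, against 18.8% of all genes) and 5 higher (13.5%, against 22.2%), with a median of -0.0025 against 0.029. Median-of-ratios scaling gave 12 and 3, beside 3819 and 3342 of all genes. With MT- rows kept 6 members were lower and none higher, beside 892 and 845 of all genes. The luminal marker sum was 1498 to 1547 TPM under guide 2 and 3105 to 3394 TPM under guide 1. In that sum 4 of the 6 genes had a lower mean under guide 2, and KRT8 and HOXB13 had a higher one.

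Guide 1 against the control guide in vehicle gave small changes whose calls rested on single libraries. AADAT read 17.4, 17.0 and 15.4 TPM against 13.5, 14.5 and 14.0 TPM (log2 change 0.23 ± 0.047, adjusted p = 0.013), and with MT- rows kept its sign turned (-0.21, not called). 9 members were called higher (24.3%, against 21.1% of all genes, near the background), with changes from 0.14 for PDHA1 to 0.25 for IDH3A. Between them and beside AADAT lay SUCLG2 and PDK1 (each 0.22), ME2 (0.20), ME1 (0.19), PDHX (0.17) and PDP1 (0.15). All 9 turned negative with MT- rows kept, a setting that moved the median of all genes from 0.021 to -0.32. Of the 9, 1 was then called lower, PDHA1 (-0.33, adjusted p = 0.040 in limma's test). IDH2, which makes 2-oxoglutarate with NADP in mitochondria, was the single member called lower (-0.27, 2.70%, against 11.1%). The median over members was -0.0051.

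The count of 10 in that comparison became 0 in limma's test without control vehicle replicate 1 or 3 (15 and 10 at an unadjusted p under 0.05). It was 0 without guide 1 replicate 1 or 2 (9 and 10), and 26 without guide 1 replicate 3. In that order, 0.972%, 1.45%, 1.98%, 1.1% and 56.7% of all genes were called. The share of MT- rows differed between the guide 1 libraries (73.8%, 69.9% and 57.2%), and several members differed with it after those rows were dropped. IDH2 read 58.8, 68.3 and 82.9 TPM in replicates 1, 2 and 3, against 83.1 to 84.0 TPM in the controls. MDH2 read 129, 160 and 181 TPM, BCKDK, the branched-chain keto acid dehydrogenase kinase, 46.2, 63.5 and 77.1 TPM, and D2HGDH, which turns D-2-hydroxyglutarate into 2-oxoglutarate, 1.90, 2.65 and 4.45 TPM. In each case replicate 3 lay nearest to the controls. With replicate 3 as the only guide 1 library, IDH2 changed by -0.01 and limma called no member (2 at an unadjusted p under 0.05). Median-of-ratios scaling called 7 members higher and 9 lower, beside 2776 and 3240 of all genes.

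The libraries labelled guide 2 in vehicle differed from control vehicle in 32 of the 37 members, 21 lower (56.8%, against 24.0% of all genes) and 11 higher (29.7%, against 50.9%). The median was -0.20, against 0.23 over all genes. Median-of-ratios scaling, which moved the median of all genes to -0.068, gave 28 lower and 5 higher, beside 6586 and 5396 of all genes. With MT- rows kept 11 were lower and 7 higher, beside 2420 and 5500 of all genes. AADAT read 4.58, 4.95 and 4.88 TPM against 13.5, 14.5 and 14.0 TPM (-1.37 ± 0.047), and PDK1, the pyruvate dehydrogenase kinase known as a hypoxia target, 4.76, 5.36 and 5.32 TPM against 13.7, 14.7 and 14.9 TPM (-1.33 ± 0.052). Neither gene had any overlap between groups. CS read 81.9, 86.3 and 85.5 TPM against 151, 157 and 152 TPM (-0.85), FH 50.4, 51.3 and 51.7 TPM against 88.7, 87.3 and 87.6 TPM (-0.77), and DLAT 20.5, 21 and 23.1 TPM against 42.9, 44.8 and 41.1 TPM (-0.96). All 3 lay well below the controls. PDPR was higher, at 15, 17.3 and 15.2 TPM against 7.26, 7.72 and 7.15 TPM (1.01 ± 0.058), and so were D2HGDH (0.73), BCKDHA (0.72), IDH3G (0.51) and GOT2 (0.44). Smaller rises were called for MPC1 (0.35), ACO1 and PDP1 (each 0.33) and SUCLA2 (0.21). The other members called lower were PDP2 (-0.70), GPT2 and PC (each -0.52), ME1 (-0.50), ME2 (-0.48), PDHA1 (-0.45), IDH2 (-0.34), MPC2 (-0.32), MDH2 (-0.25), GOT1 and GLUD1 (each -0.23), SUCLG2 (-0.22), PDHB (-0.21), IDH3A (-0.20), PDHX (-0.19) and IDH1 (-0.15). IDH3B (0.19) and MDH1 (0.25) were also called higher, but lower with median-of-ratios scaling (-0.16 and -0.10). OGDHL, the marker CD68 and the number of rows at 0 set these libraries apart as well, and the label cannot be checked from the table.

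Within the libraries labelled guide 2, drug against vehicle, 13 members were called lower (35.1%, against 49.7% of all genes) and 13 higher (35.1%, against 23.0%), with a median of -0.0099 against -0.20 over all genes. With median-of-ratios scaling, where the median of all genes was 0.056, 21 were higher and 6 lower, beside 6218 and 5220 of all genes. GOT2 went from 236, 238 and 241 TPM to 85.1, 84.3 and 86.2 TPM (-1.47), and MPC2 from 85.4, 85.2 and 85.3 TPM to 41.2, 41.3 and 42.8 TPM (-1.01). BCKDHA (-0.83), PDPR (-0.80), ME1 (-0.70), D2HGDH (-0.58), IDH3G (-0.37), GOT1 and MDH1 (each -0.36), IDH3B (-0.35), SUCLG1 (-0.21), PDHX (-0.20) and SUCLA2 (-0.17) were also called lower. PDK1 (0.87), CS (0.69), PDK3 (0.66), IDH1 (0.59), PDP2 (0.57), ME2 (0.56), SUCLG2 (0.54), FH (0.45), ACO1 (0.39), PC (0.30), BCAT2 (0.24), PDHA1 (0.15) and PDHB (0.12) were called higher, the last 2 with a negative sign, not called, when MT- rows were kept. AADAT was not called (-0.01, adjusted p = 0.81), with drug libraries at 4.58, 4.85 and 4.82 TPM beside vehicle at 4.58, 4.95 and 4.88 TPM. The interaction of guide 2 with the drug called 17 members higher (45.9%, against 19.5%) and 8 lower (21.6%, against 43.7%). The median was 0.20 against -0.20. With median-of-ratios scaling the interaction called 26 and 2, beside 5620 and 4480 of all genes. PDK1 (1.24), DLAT (0.84), CS (0.82), AADAT (0.77), FH (0.67) and PDP2 (0.62) led the higher ones, ahead of ME1 (0.44), PC (0.43), PDHA1 (0.42), IDH1 and GPT2 (each 0.37), GLUD1 (0.36), ME2 (0.30), MPC2 (0.26), SUCLG2 (0.24), PDHB (0.20) and SUCLG1 (0.16). PDPR (-0.95) led the lower ones, ahead of BCKDHA (-0.55), D2HGDH (-0.54), IDH3G (-0.43), GOT2 (-0.42), PDP1 (-0.29), SUCLA2 (-0.22) and IDH3B (-0.12, and 0.20, called, with median-of-ratios scaling). All of these values rest on the libraries labelled guide 2 in vehicle, and none can be had without them.

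The group means of the 3 drug comparisons share no library, so they can be set side by side. The guide 2 values rest on the libraries labelled guide 2 in vehicle, which stood apart from all others. How many of all genes were called the same way under all 3 guides was not counted, so the counts here have no background. 3 members were higher in the drug under all 3 guides: PDK3 (0.50 under the control guide, 0.91 under guide 1 and 0.66 under guide 2), ACO1 (0.47, 0.33 and 0.39) and IDH1, the cytosolic isocitrate dehydrogenase (0.22, 0.25 and 0.59). 7 were lower under all 3: GOT2 (-1.05, -0.92 and -1.47), ME1 (-1.15, -0.66 and -0.70), MPC2 (-1.27, -0.14 and -1.01), BCKDHA, PDHX, IDH3B and SUCLG1. With MT- rows kept, only PDK3, GOT2 and ME1 of these 10 were called under all 3 guides: 5 of the 10 were called under the control guide, 5 under guide 1 and 9 under guide 2. The calls of ACO1 (adjusted p = 0.054), IDH1, BCKDHA, PDHX and IDH3B were lost under the control guide, that of PDHX under guide 1 (-0.04, adjusted p = 0.79) and that of ACO1 under guide 2 (0.22, adjusted p = 0.17). MPC2, BCKDHA, IDH3B and SUCLG1 turned positive, not called, under guide 1 with MT- rows kept, and SUCLG1 and PDHX under guide 2 with median-of-ratios scaling. GOT2 ended at a mean of 84.3 TPM in the control guide, 86.1 TPM in guide 1 and 85.2 TPM in guide 2, and the libraries of the 3 drug groups overlapped. The order of AADAT levels in the drug was guide 2 (4.75 ± 0.15 TPM, SD, n = 3), control guide (7.69 ± 0.13 TPM) and guide 1 (53.0 ± 2.26 TPM), and no neighbours in that order overlapped.

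9 members have named copies in the table (16 in all, pseudogenes or, for GLUD1, the gene GLUD2), and how the authors' counting shared reads between them is not given in the sources used here. 9 of the copies had a mean of 1 TPM or more. SUCLG2, a subunit of succinyl-CoA synthetase, stood at 2.39 TPM in control vehicle and its pseudogene SUCLG2P2 at 106 TPM. GLUD1 stood at 24.8 TPM and GLUD2 at 108 TPM, FH at 87.9 TPM and FHP1 at 105 TPM, and SUCLA2 at 1.03 TPM and SUCLA2P1 at 6.27 TPM. The levels of FH, GLUD1, SUCLA2 and SUCLG2 are therefore uncertain. GOT2 exceeded its pseudogenes GOT2P3 (33.2 TPM) and GOT2P2 (23.5 TPM), and summed with its copies its drug changes were -1.02, -0.88 and -1.44 under the control guide, guide 1 and guide 2. In the sums GLUD1 lost its limma calls in guide 1 and guide 2 against control in the drug (adjusted p = 0.47 and 0.32). GLUD1 (0.82) and ME2 (0.089) lost theirs for the drug under guide 1, and ME2 (0.068) and SUCLG2 (0.087) for guide 1 in vehicle. New calls were FH (-0.15) and GLUD1 (-0.25) for guide 1 in vehicle and SUCLA2 (-0.37) for the interaction of guide 1. SUCLG2 was newly called for guide 1 against control in the drug (-0.20), the drug under guide 1 (0.12) and guide 2 against guide 1 (0.24). AADAT, MPC2, ME1 and GOT1 have no copy in that set.

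**Figure D4:**
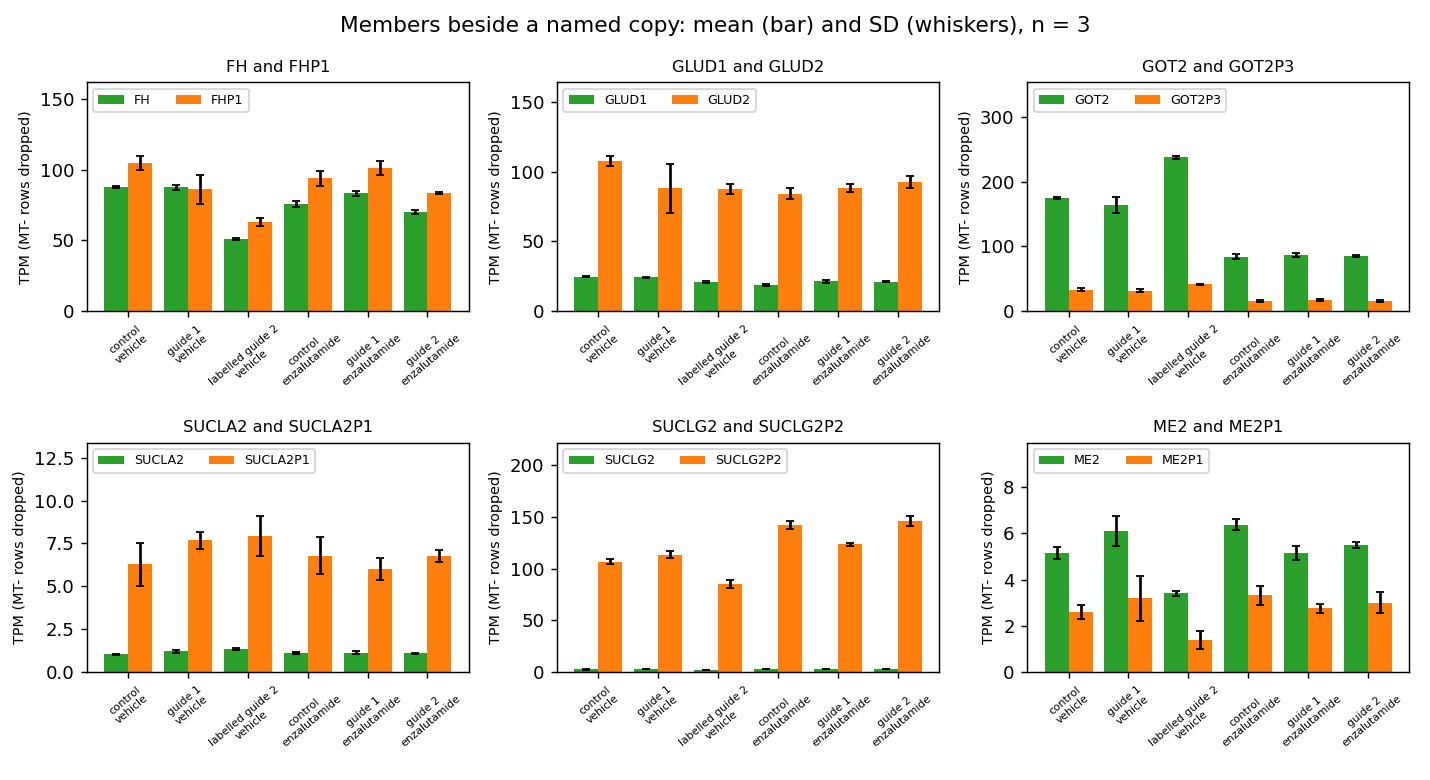
Mean TPM (bars) and SD (whiskers, n = 3) in the 6 groups for 6 members (green) and a named copy of each (orange). SUCLG2P2, GLUD2 and SUCLA2P1 exceed their members in every group, while GOT2 and ME2 exceed theirs.

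The other genes of the same pathways, 26 that are not members, of which 25 were tested, were called in 4 (higher) and 10 (lower) cases for the drug under the control guide (16% and 40%, against 23.1% and 24.8% of all genes). LDHA, which makes lactate from pyruvate, fell by 1.09 there, and LDHB rose by 0.55. Guide 1 against control in the drug gave 5 higher and 2 lower (20% and 8%, against 16.3% and 14.3%, near or below the background), LDHB (0.51), LDHA (0.46) and PSAT1 (0.56) among the former. The 2 lower were OGDHL (-1.31), the target of the guides, and GLS2 (-0.31), at a mean of 0.354 TPM against 0.681 TPM. Guide 2 against control in the drug gave 1 higher and 4 lower (4% and 16%, against 8.97% and 5.02%), with LDHB at -0.33, LDHA at -0.29 and PSAT1, the phosphoserine transaminase that makes 2-oxoglutarate, at -0.47. OGDHL (-0.71) was among the lower under guide 2 as well. OGDH, the main first subunit of the complex, was called under neither guide in the drug (0.06 and 0.18). In vehicle guide 1 gave 3 higher and 4 lower (12% and 16%, against 21.1% and 11.1%). The 4 lower were OGDHL, DLST, GLUD2 and SLC25A1, and all but OGDHL overlapped control vehicle. DLST read 31.1, 36.5 and 45.5 TPM and SLC25A1 116, 153 and 220 TPM in replicates 1, 2 and 3. Control vehicle read 45.1 to 46.8 TPM and 211 to 223 TPM. The libraries labelled guide 2 in vehicle gave 10 and 11 (40% and 44%, against 50.9% and 24.0%), with the glutaminase GLS2 at 10.6 TPM against 0.308 TPM and glutamine synthetase GLUL at 464 TPM against 171 TPM. OGDHL (0.42) was among the 10.

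4 members were below the filter. PDK4, a pyruvate dehydrogenase kinase, was listed at 0 in 12 libraries and reached 0.0465 TPM. ME3 was listed at 0 in 8 and reached 0.00174 TPM, and BCAT1, the cytosolic branched-chain transaminase, reached 0.0263 TPM. BCKDHB ran from 0.676 to 1.00 TPM. Of the 37 tested members, 1, BCKDK, was called in none of the 8 comparisons of 2 groups.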

How the data were processed

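Bulk RNA sequencing of 18 libraries (6 groups of 3, grouped by the labels) was used as a table of TPM that the authors deposited. Per the labels' protocols the libraries were made from enriched mRNA with strand kept; per the submitters' processing notes STAR and GRCh38 were used. Which tool and annotation gave the TPM is not given in the sources used here. Of the table's 37347 rows, 37 MT- rows were dropped, 10345 rows without a gene name stayed in the rescaling to 1000000 but were not tested, 32 symbols with 2 to 4 rows were summed and 3 symbols with more rows (69 rows) were left out. limma 3.58.1 (R 4.3.3; moderated test with trend) fitted 6 group means to log2(TPM + 1), with a pseudocount of 1, to 16067 genes that reached 1 TPM in no fewer than 3 libraries, and p-values were Benjamini-Hochberg adjusted over all of them. There were 8 comparisons of 2 groups and 2 interactions. On data simulated for enzalutamide against vehicle under the control guide (16067 genes), the test recovered 78.7%, 96.4% and 99.4% of changes of 0.5, 1 and 2 on the log2 scale. Of its calls, 3.89% were false. Each of 5 simulations changed 200 genes, none of low mean level, with independent noise of equal spread in every group. In the data far more genes were called and the spread of guide 1 in vehicle was wider. These shares therefore do not give the recovery for low members or for these comparisons. Python 3.11.15, numpy 2.4.6, pandas 2.3.3 and matplotlib 3.10.9 did the rest.

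Named genes follow a rule: every member is accounted for, and called members are given with values, led by the 8 largest changes without overlap of replicates. The members, the companion genes and the markers were chosen with earlier results of these data known, and 2 of the 8 luminal markers chosen are not reported here. Alternatives were pseudocounts of 0.1 and 5, a filter at 5 TPM or none, MT- rows kept, scaling by median of ratios, only the libraries of a comparison, the replicate number as a block, each library left out, and, added after the data were seen, members summed with named copies and guide 1 vehicle replicate 3 as the only library of its group. Promoters are from RefSeq (GRCh38.p14), matched by symbol for 38 of 41 members, and transcript starts from GENCODE release 29.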

Additional observations from a re-analysis of the deposited data

Results flagged for a closer look

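The drug change of 14 members differed between guide 1 and the control guide by limma's test of the interaction. The 8 largest differences (guide 1 minus control guide, log2 scale) were 2.41 for AADAT, 1.13 for MPC2, 0.60 for GOT1, 0.49 for ME1, -0.46 for ME2, -0.41 for PDPR, 0.41 for PDK3 and -0.34 for SUCLG2. Those of ME2, PDPR and SUCLG2 were not called with MT- rows kept (-0.12, -0.07 and -0.06).

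Between guide 2 and the control guide the same test called 25 members, and the 8 largest differences were 1.24 for PDK1, -0.95 for PDPR, 0.84 for DLAT, 0.82 for CS, 0.77 for AADAT, 0.67 for FH, 0.62 for PDP2 and -0.55 for BCKDHA. These rest on the libraries labelled guide 2 in vehicle, which stood apart from all others.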

How the results depend on the processing

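Of 165 alternative counts of called members, 143 stayed within 1.5 times the reported count. The counts with MT- rows kept are given with the share of all genes called. They were 9 for the drug under the control guide (20.8%), 26 for guide 1 in vehicle (57.8%) and 18 for guide 2 in vehicle (59%). In the drug they were 3 for guide 1 (7.07%), 1 for guide 2 (1.25%) and 6 for guide 2 against guide 1 (12.9%). The drug under guide 1 gave 7 (29.9%), and the interactions of guides 1 and 2 gave 5 (6.95%) and 9 (43.6%). In guide 1 against control in vehicle AADAT (-0.21), SUCLG2 (-0.092), PDK1 (-0.22), ME1 (-0.16), PDP1 (-0.10) and PDHA1 (-0.33) changed sign. Of these, PDHA1 alone was called after the change, and so was called in both directions. In that comparison, median-of-ratios scaling called 16, the limma fit to its own libraries 0 (6 at an unadjusted p under 0.05), and replicate 3 alone 0 (2). For the drug under guide 1 the fit to its own libraries called 12. Leaving out each library gave 0 to 26 calls for guide 1 in vehicle, 4 to 6 for guide 2 in the drug and 12 to 24 for the interaction of guide 1; the other 7 counts stayed within 1.5 times. Of 1428 alternative values of the 87 leading changes, OGDHL included, 1323 kept their call, 99 lost it and 6 changed sign. The cause was not tested beyond what each setting changes. TPM keeps no depth, so counting error is unknown.

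Same-numbered libraries deviated together weakly or not at all (correlations from -0.29 to 0.11), so the replicate numbers were not taken as pairs. For guide 1 against control, in vehicle and in the drug, each guide 1 library matched the same-numbered control best, at correlations of 0.051 to 0.11. With a replicate block 24 members were called for the drug under the control guide (beside 46% of all genes). There were 7 for guide 1 in vehicle (22.7%) and 16 for guide 1 in the drug (28.4%). No count of members moved by over 1.5 times.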
